A study of Schizosaccharomyces pombe with 4 samples.

Results

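The 8 RNAs described here are the spliceosomal snRNA genes snu1, snu2, snu4, snu5 and snu6, the signal recognition particle RNA gene srp7, and the genes mrp1 and rrk1, whose RNAs belong to RNase MRP and RNase P. A window of the authors' comparison was taken as a member where it overlapped one of these genes, as annotated in the assembly ASM294v3, by at least 1 base. This gave 17 of the 4012 windows, on 7 of the 8 genes, and rrk1 had none. The small RNA libraries came from fission yeast (Schizosaccharomyces pombe) growing exponentially in rich medium without treatment, with 2 libraries of a strain labelled ABP1d and 2 of the wild type (WT). ABP1 is named in the series title as the fission yeast counterpart of CENP-B, a protein first known from centromeres, and the series asks about its role in repressing cryptic transcription of Tf2 and of the rRNA gene repeats. The comparison gives 1 RPKM value (reads scaled to window length and to a total) for each strain, pooled over its libraries, so no spread between libraries could be computed. Value times length gave whole reads, against totals of 23817270 in ABP1d and 14466014 in WT, and the depth of each library is unknown. Ratios below are ABP1d over WT after scaling to these totals, with an exact 95% binomial interval that covers counting error only. No window overlapped cbp1, the annotated gene of ABP1, so the strain label could not be checked in these data. Whether the difference of a window exceeds the spread between replicates could not be tested, and every difference is one between pooled libraries.

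Introns are removed by the spliceosome, in which the U1 RNA pairs with the 5′ splice site, the U2 RNA pairs with the branch site, and the U4, U5 and U6 RNAs join as a tri-snRNP before U6 takes over the 5′ splice site. The U1, U2, U4 and U5 RNAs carry a U-rich sequence that is bound by a ring of Sm proteins, whereas U6 is bound by LSm proteins. The RNA of srp7 is the scaffold of the particle that brings ribosomes making secreted proteins to the endoplasmic reticulum. RNase P trims the 5′ ends of tRNA precursors, and the related RNase MRP cuts rRNA precursors.

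The annotated RNAs are shown with the listed windows in capitals, since the windows took up only a part of each RNA and the part differed between genes. The letters are those of the RefSeq assembly ASM294v3, read 5′ to 3′ on the strand of the gene, and position 1 is the annotated 5′ end. Where a window ran past the annotated 3′ end, the line runs on to the end of that window, and for mrp1 only the first 60 of 399 bases are shown.
snu1: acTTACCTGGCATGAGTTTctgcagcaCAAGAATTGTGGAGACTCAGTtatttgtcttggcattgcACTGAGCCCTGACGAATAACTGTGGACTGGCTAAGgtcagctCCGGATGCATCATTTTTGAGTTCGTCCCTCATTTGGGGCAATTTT
snu2: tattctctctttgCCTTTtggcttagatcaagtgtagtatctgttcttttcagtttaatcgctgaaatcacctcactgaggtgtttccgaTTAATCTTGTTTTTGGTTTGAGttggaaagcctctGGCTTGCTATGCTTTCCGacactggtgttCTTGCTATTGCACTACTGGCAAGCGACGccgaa
snu4: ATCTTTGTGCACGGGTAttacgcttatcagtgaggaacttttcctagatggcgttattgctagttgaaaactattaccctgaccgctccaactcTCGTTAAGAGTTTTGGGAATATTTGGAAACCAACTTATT
snu5: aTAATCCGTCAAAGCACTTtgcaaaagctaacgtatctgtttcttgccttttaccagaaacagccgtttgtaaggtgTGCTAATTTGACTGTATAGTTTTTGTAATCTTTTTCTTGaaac
snu6: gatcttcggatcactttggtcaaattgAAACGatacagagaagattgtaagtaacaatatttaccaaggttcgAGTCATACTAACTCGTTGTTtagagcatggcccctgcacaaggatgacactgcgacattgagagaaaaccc
srp7: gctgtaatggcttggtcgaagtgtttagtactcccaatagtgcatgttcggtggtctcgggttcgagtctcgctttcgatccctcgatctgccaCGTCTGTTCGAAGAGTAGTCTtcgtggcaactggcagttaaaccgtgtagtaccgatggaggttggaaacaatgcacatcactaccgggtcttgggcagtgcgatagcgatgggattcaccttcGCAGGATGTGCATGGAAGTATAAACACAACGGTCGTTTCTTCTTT
mrp1: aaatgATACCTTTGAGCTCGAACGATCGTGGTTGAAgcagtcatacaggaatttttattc

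Summed over the 7 RNAs, there were 3427 reads in ABP1d and 1311 in WT, or 144 and 90.6 RPM (reads scaled to the total alone). The ratio of 1.59 (95% interval 1.49 to 1.69) was set mostly by srp7, which had 55.7% of these reads in ABP1d and 74.8% in WT. Without srp7 the ratio was 2.79 (2.47 to 3.15). The summed ratio fell below 1 when the median of the 5S rRNA windows or of all windows was set to equal values in both strains, which shifts log2 ratios by -1.25 and -2.09. All directions below are therefore relative to the totals, and the RNAs whose direction held under the other scalings are named after the values per gene.

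Of the 17 windows, 16 were higher in ABP1d, against 82.9% of all windows in the table, and 15 were at least 2-fold higher, against 79.9%. The interval lay above 1 in 15 windows, against 77.6% of all, and below 1 in 1 window, against 17.1% of all. The median log2 ratio was 2.09 over the 17 windows and 2.09 over all 4012, with 0 reads set to 3. With this floor, the snRNA and related windows lay at the middle of the table in their ratio. WT had 0 reads in 1713 of the 4012 windows, against 1 of the 17. The median over the table, and the scaling that centres all windows, thus rest in part on the floor. Windows with equal values, which recur in the table, were each counted. With the 5S windows centred, 13 of the 17 were higher, against 71.2% of all windows, and with all windows centred 8 of the 17, against 49.5%, again with 0 reads set to 3. Windows on snoRNA genes had a median log2 ratio of 1.37 with 35 of 45 higher, those on 5S rRNA genes 1.25 with 35 of 37 higher, and those on nuclear tRNA genes 1.84 with 177 of 177 higher. The authors' deposited table holds no p-value above 0.0494, so windows that differed little are not in it. With 0 reads set to 3, no window with under 50 reads in both strains together differed by less than 2.02-fold. That limit is the value of 10 reads in ABP1d against this floor. Windows with at least 1000 reads entered with differences down to 1.12-fold. Since 9 of the 17 windows had under 50 reads, a large ratio in these was a condition for being listed.

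**Figure D1:**
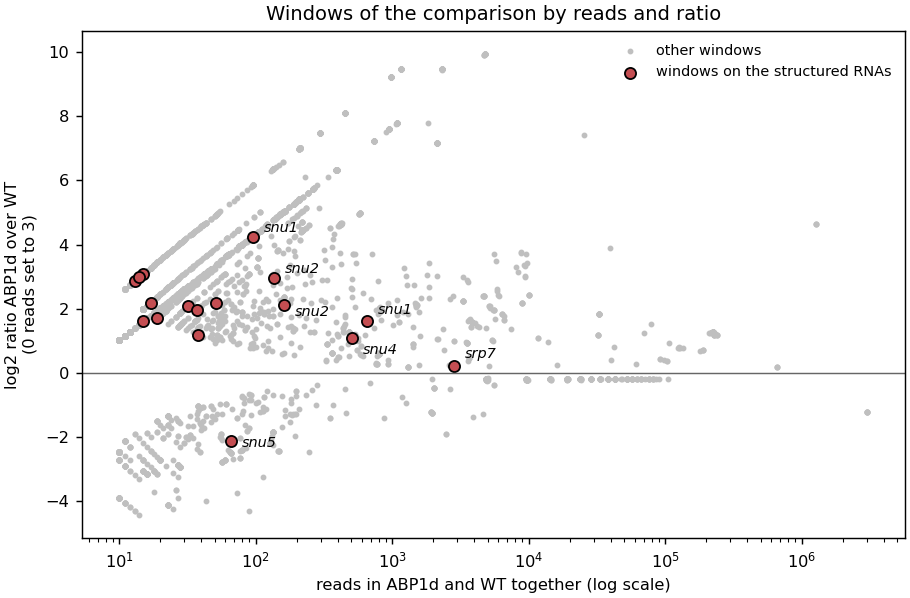
Each point is a window of the comparison, with the reads of both strains together on a logarithmic x axis and the log2 ratio of ABP1d over WT (0 reads set to 3) on the y axis; the 17 windows on the structured RNAs are outlined and those with at least 60 reads are named. They lie within the cloud of the other windows, with srp7 near 0 at the most reads and 1 snu5 window at -2.13.

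The U1 gene snu1 (chromosome II, 3020205 to 3020353, plus strand) was the most completely covered RNA, with 4 windows over 76.5% of its 149 bases. Its 5′ window, positions 3 to 19, stood at 37.0 RPKM in ABP1d and 8.13 in WT, from 15 and 2 reads. This window starts within the 5′ end of U1, whose letters ACTTACC at positions 1 to 7 pair with 5′ splice sites, and it covers 5 of these 7 bases. The next window, positions 28 to 48, stood at 64.0 RPKM in ABP1d and 16.5 in WT, giving a ratio of 3.89 (1.50 to 12.8).
The window at positions 67 to 101 had 93 reads in ABP1d and 3 in WT, or 112 and 5.93 RPKM. Its ratio of 18.8 (6.25 to 93.0) was the highest estimate among the windows with WT reads. The 3′ window, positions 109 to 153, held most of the U1 reads, with 550 in ABP1d and 110 in WT, or 513 and 169 RPKM. It ran 4 bases past the annotated end, and its ratio was 3.04 (2.47 to 3.76), and its p is 0 in the authors' deposited table. Summed over the 4 windows, U1 had 29.0 RPM in ABP1d and 8.30 in WT, giving a ratio of 3.49 (2.87 to 4.28).

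The U2 gene snu2 (chromosome I, 959370 to 959556, minus strand) had 4 windows over 39.0% of its 187 bases. At positions 14 to 18 a window of 5 bases had 15 reads in ABP1d and 0 in WT. Against a floor of 3 reads, set per pooled strain, ABP1d was 3.04-fold higher. The lower limit of the exact interval, computed from 0 reads in WT, was 2.18. Positions 91 to 112 carried 242 RPKM in ABP1d and 31.4 in WT, giving a ratio of 7.71 (4.06 to 16.5). A small window at positions 126 to 143 had 14 reads in ABP1d and 1 in WT, giving a ratio of 8.50 with a wide interval of 1.29 to 359.5.
Near the 3′ end, positions 155 to 182 carried 213 RPKM in ABP1d and 49.4 in WT, giving a ratio of 4.31 (2.69 to 7.27). The letters GTAGTA, with which U2 pairs with the branch site of an intron, are at positions 34 to 39 and were under no window. With 298 reads in ABP1d and 31 in WT, U2 had the highest summed ratio of the 7 RNAs, 5.84 (4.03 to 8.75).

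The U4 gene snu4 (chromosome II, 467489 to 467615, minus strand) had a window at each end and none between them. The 5′ window, positions 1 to 17, had 13 reads in ABP1d and 1 in WT, giving a ratio of 7.90 (1.19 to 335.6). The 3′ window, positions 95 to 133, had 396 reads in ABP1d and 113 in WT, or 426 and 200.3 RPKM, and ran 6 bases past the annotated end. Its ratio of 2.13 (1.72 to 2.65) set that of the whole RNA, 2.18 (1.77 to 2.71), because it held nearly all U4 reads.

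The U5 gene snu5 (chromosome II, 3236867 to 3236986, plus strand) was the exception. U5 holds the exons in place through the loop that contains the letters CCTTTTA, which are at positions 47 to 53 and were under no window. In the window at positions 78 to 116, ABP1d had 18 reads and WT 48, or 19.4 and 85.1 RPKM. This was the only member window that was lower in ABP1d, with a ratio of 0.228 (0.125 to 0.399), and the authors' deposited table gives it p = 2.99e-08. The 5′ window, positions 2 to 19, had 16 reads in ABP1d and 3 in WT, giving a ratio of 3.24 whose interval (0.927 to 17.3) included 1. The summed U5 ratio was 0.405 (0.254 to 0.637).
Just beyond the gene, a window that begins 1 base after the annotated 3′ end (3236987 to 3237004), and so was not a member, had 17 reads in ABP1d and 2 in WT, giving a ratio of 5.16 (1.23 to 46.1). The windows before and after the lower one thus had more reads in ABP1d, but both rest on few reads.

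The U6 gene snu6 (chromosome I, 2562276 to 2562419, minus strand) is annotated with exons at positions 1 to 46 and 97 to 144 and an intron at 47 to 96. Its main window lay wholly in the intron, at positions 74 to 93, with 63.0 RPKM in ABP1d and 27.7 in WT, from 30 and 8 reads. The ratio was 2.28 (1.02 to 5.75). This window holds the letters TACTAAC at positions 79 to 85, which are the branch-site consensus of budding yeast introns.
A window of 5 bases in the first exon, positions 28 to 32, had 12 reads in ABP1d and 1 in WT, giving a ratio of 7.29 (1.08 to 311.6). It ends shortly before the letters ACAGAGA (positions 35 to 41), the part of U6 that pairs with the 5′ splice site. No window was listed on the second exon. Together the U6 windows had 42 reads in ABP1d and 9 in WT, giving a ratio of 2.83 (1.36 to 6.62).

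The signal recognition particle RNA gene srp7 (chromosome I, 4268662 to 4268916, plus strand) had by far the most reads, almost all in 1 window at its 3′ end. Positions 219 to 263, which run 8 bases past the annotated end, had 1881 reads in ABP1d and 976 in WT, or 1755 and 1499 RPKM. The ratio of 1.17 (1.08 to 1.27) was the closest to 1 among the 17 windows, and the authors' deposited table gives it p = 0.000107. A second window in the middle of the RNA, positions 95 to 115, had 28 reads in ABP1d and 4 in WT, giving a ratio of 4.25 (1.49 to 16.7). The summed srp7 ratio was 1.18 (1.09 to 1.28).

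The RNase MRP gene mrp1 (chromosome I, 1234451 to 1234849, plus strand) had 1 window, at positions 6 to 36, which covered 7.77% of the gene. It had 45 reads in ABP1d and 6 in WT, or 60.9 and 13.4 RPKM, giving a ratio of 4.56 (1.94 to 13.1). The RNase P gene rrk1 (chromosome III, 989942 to 990834, minus strand) had no listed window, and the nearest one lay 1468 bases away. Since the table lists only windows that differed, this does not show that its small RNAs were absent or equal in the strains.

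**Figure D2:**
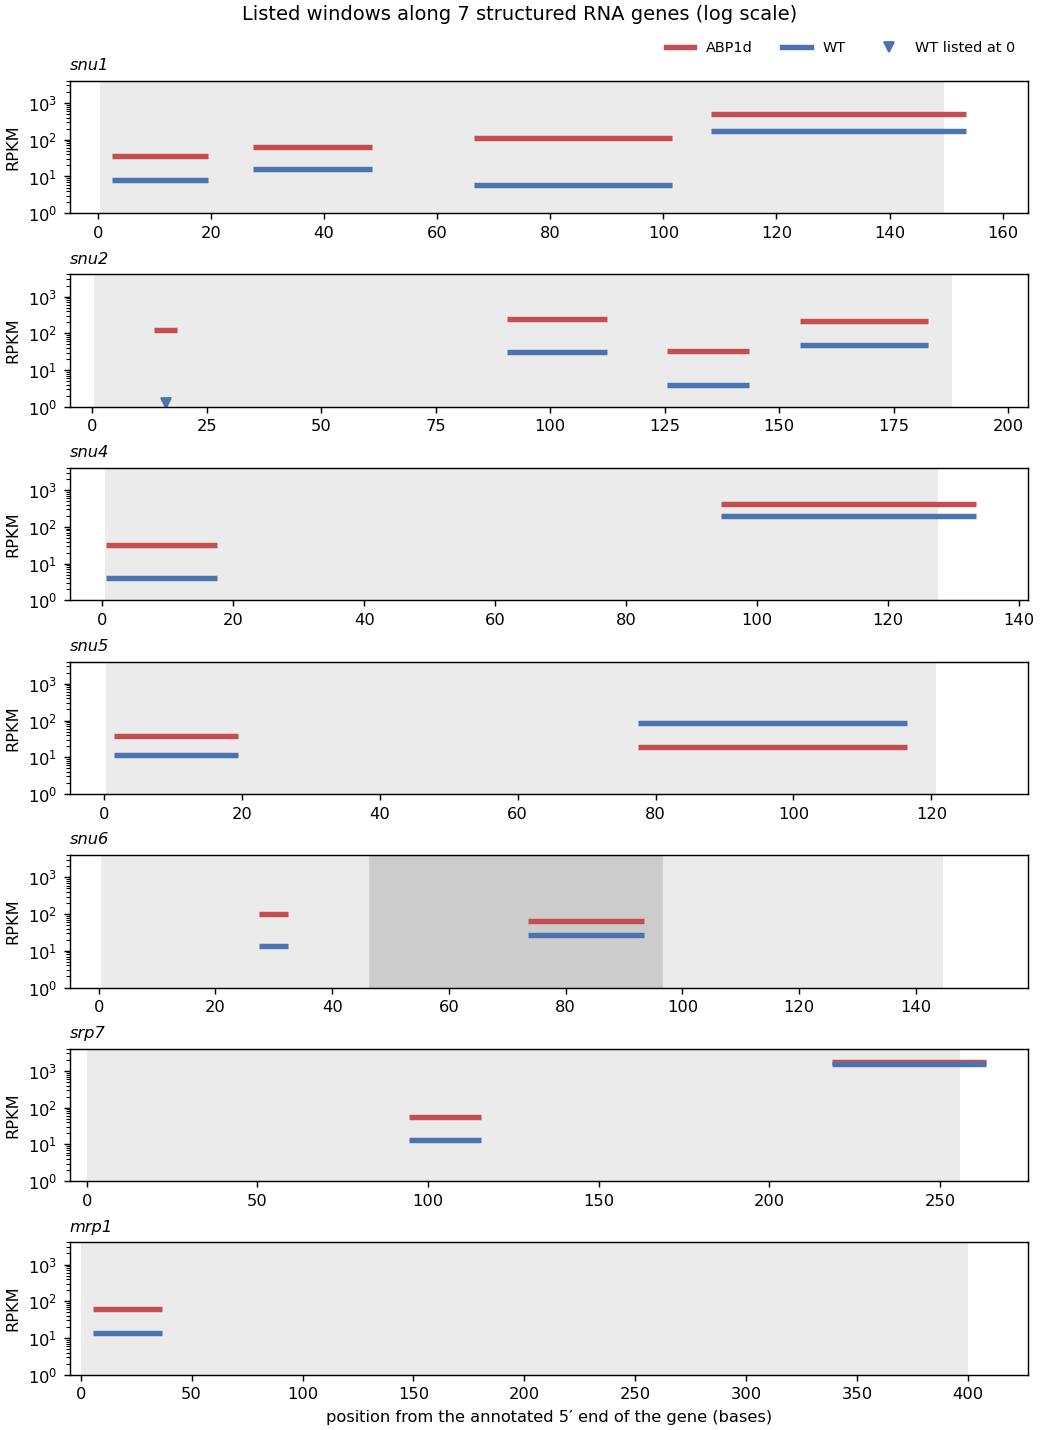
For each of the 7 RNAs, horizontal bars mark the listed windows by their position from the annotated 5′ end (x axis, bases) and their RPKM on a logarithmic y axis in ABP1d and WT; light grey is the annotated gene and dark grey the snu6 intron. On the scale of the deposited RPKM, ABP1d lies above WT in all but the snu5 window at positions 78 to 116, and the 3′ windows of snu1, snu4 and srp7 are the highest of their RNAs and run past the annotated end.

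Ordered by their summed ratio, the RNAs were snu2 (5.84), mrp1 (4.56), snu1 (3.49), snu6 (2.83), snu4 (2.18), srp7 (1.18) and snu5 (0.405). Neighbours from snu2 down to snu4 had overlapping intervals, while srp7 lay below snu4 and snu5 below srp7 without overlap. Under the 4 other scalings tried, snu2 and mrp1 stayed above 1. These scalings multiply every ratio by 0.828, 1.01, 0.235 or 0.420. None of them could bring snu5 above 1, so the direction of snu5 was not tested by them. For mrp1 the interval included 1 when either the 5S windows or all windows were centred, and for snu2 when all windows were centred. The other RNAs fell below 1 in at least 1 scaling, namely snu1 and snu6 with all windows centred, snu4 with either centring, and srp7 with these and with the rRNA repeat and 5S windows left out of the total. With all windows centred, the interval included 1 for snu1 (0.676 to 1.006) and snu6 (0.320 to 1.56). It also included 1 for snu4 with the 5S windows centred (0.742 to 1.14) and for srp7 with rRNA left out (0.907 to 1.06). The differences between the RNAs do not depend on scaling, as it multiplies all ratios by the same factor. They do depend on which windows are summed. With only the top window of each RNA, snu2 (4.31) lay below mrp1 (4.56), and snu5 stood at 0.228, with the others in the same order.

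**Figure D3:**
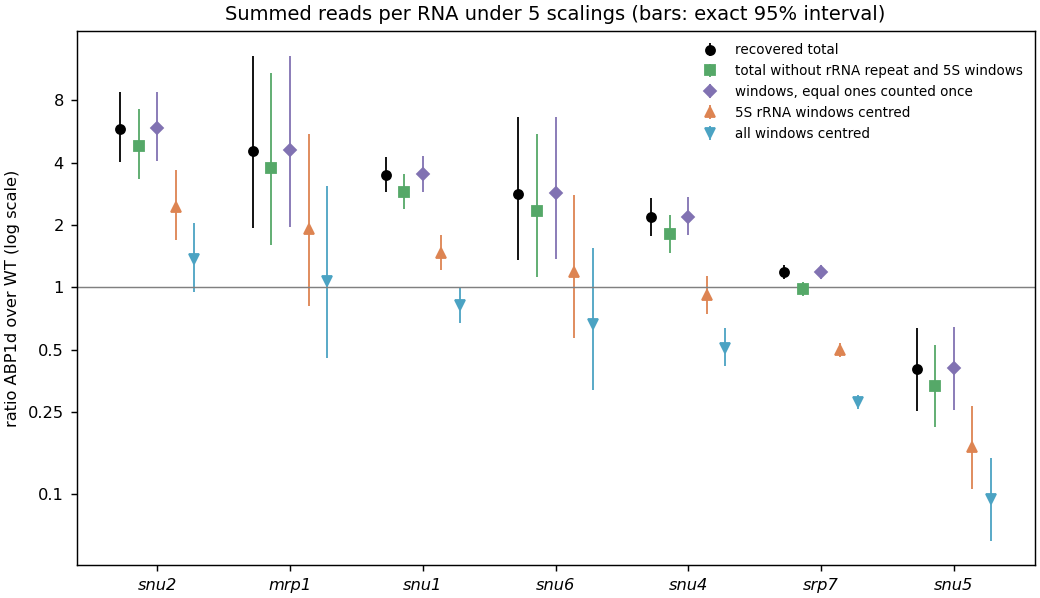
The ratio of summed reads, ABP1d over WT, is shown for each RNA on a logarithmic y axis under 5 scalings, with exact 95% intervals that cover counting error only. The scalings move all RNAs together, and snu2 and mrp1 stay above 1 in each, although their intervals reach below 1 under centring. None of the scalings could bring snu5 above 1.

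In 5 of the 6 RNAs with several windows, snu2 being the exception, the 3′-most window held most of the listed reads, from 52.9% (snu5) to 98.5% (srp7) in ABP1d and from 88.9% (snu6) to 99.6% (srp7) in WT. In snu2 it held 47.7% in ABP1d and 64.5% in WT. The 3′-most window of snu6 lies wholly in the intron, at positions 74 to 93 of 144, and not at the 3′ end. The windows nearer the 5′ end had between 1 and 11 reads in WT per RNA, and windows with so few reads were listed only where their ratio was far from 1. The shares of ABP1d and WT were therefore not compared, as the choice of listed windows bears on their difference.

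Several features were shared by windows on different RNAs. The letters TTTTTG, searched on both strands as part of the U-rich sequence that Sm proteins bind, occurred once in snu1 (positions 121 to 126), snu2 (100 to 105) and snu5 (97 to 102), each time on the strand of the gene and wholly under a window. They did not occur in snu4, srp7 or mrp1. Such a match was held by 28.7%, 34.7% and 23.7% of genome segments as long as snu1, snu2 and snu5, so the letters are common. Of the other letters given above, ACTTACC was held by 1.61% of segments of the length of its gene, GTAGTA by 8.79%, CCTTTTA by 2.62%, ACAGAGA by 1.52% and TACTAAC by 2.19%. TTTTTG did not overlap any of these in the RNAs shown. The motifs were chosen with the sequences in view, and a match is no measure of protein binding. In structures predicted by RNAfold for the joined exons, the share of paired bases was lower under windows than in the rest of the RNA for 6 of the 7 RNAs, namely snu5 (33.3% under windows and 61.9% elsewhere), snu6 (20% and 43.8%, over only 5 exonic bases under windows), snu4 (56.0% and 70.1%), mrp1 (67.7% and 73.1%), snu1 (62.3% and 65.7%) and snu2 (63.0% and 63.2%). It was higher for srp7 (77.6% and 70.6%). These shares are a description, with no test.

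Windows were short, from 5 to 45 bases with a median of 21, and 15 of the 17 had a single exact match in the genome, at the gene itself. The other 2 were the windows of 5 bases in snu2 and snu6, which are too short to be the whole of a mapped read. Whether the limits of the other windows are fragment ends, and whether a read was counted in more than 1 window, was not tested. The files carry no strand. As 6 of the 8 genes, and 10 of the 17 windows, overlap a gene annotated on the other strand, sense and antisense reads cannot be told apart there. Those genes include the noncoding SPNCRNA.3909 across srp7 and SPNCRNA.6024 across snu5. None of the 8 genes overlapped a region in the lists of abundant small RNA regions that the authors made for each strain. The lowest RPM in these lists was 222 in ABP1d and 544 in WT, and the main srp7 window had 79.0 and 67.5. In RPKM, the lowest listed values were 920 and 775, and the same srp7 window lay above both, at 1755 and 1499. Why it was not listed was not tested.

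Within 300 bases of the 8 genes, 5 further windows were listed, and all 5 lay on the 3′ side. Besides the one after snu5, snu2 had one that begins 12 bases past its end (23 reads in ABP1d and 5 in WT, ratio 2.79, 1.04 to 9.41) and one at 44 bases (12 and 1 reads). The 2 windows after mrp1 lay on the neighbouring snoRNA gene snoZ16 and went in opposite directions, with 37 reads in ABP1d and 56 in WT at 1234967 to 1234992 and 263 and 122 at 1235001 to 1235050.

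Among related RNAs, the U3 RNAs, which guide early steps of rRNA processing, were higher in ABP1d as well, although both of their genes fell below 1 (0.676 for snu3 and 0.621 for snu32) with all windows centred. The gene snu3 (chromosome I, 987570 to 987825) had 374 reads in ABP1d and 79 in WT in 1 window, giving a ratio of 2.88 (2.25 to 3.71), and its copy snu32 (chromosome II, 3958832 to 3959086) had 526 and 121 in 3 windows, giving a ratio of 2.64 (2.16 to 3.24). The meiotic RNA gene sme2 had 10 reads in ABP1d and 0 in WT. Against the floor, sme2 was 2.02-fold higher in ABP1d, and the lower limit of its exact interval was 1.36. The telomerase RNA gene ter1 had no window. Of 62 matched genes for the proteins that bind, mature or work with these RNAs, 9 had a window, and all 10 of their windows were higher in ABP1d. Of the 15 Sm and LSm protein genes, 5 had 1 window each, with 80 reads in ABP1d and 2 in WT in total. Among these, smb1 and lsm3 each had 22 and 1 reads, and smd1 had 16 and 0. Against the floor, smd1 was 3.24-fold higher in ABP1d, and the lower limit of its exact interval was 2.34. The remaining Sm and LSm windows were only a few bases long, too short to be the whole of a mapped read. Of 27 snRNP protein genes, prp3 alone had a window, with 87 reads in ABP1d and 4 in WT. Of 8 genes for proteins of the signal recognition particle and its receptor, sec65 had one, with 512 and 24 reads, giving a ratio of 12.96 (8.61 to 20.4), but it also overlaps the splicing factor gene prp18. Of 8 RNase P and MRP protein genes, pop5 had 794 reads in ABP1d and 145 in WT in 2 windows, giving a ratio of 3.33 (2.78 to 4.00). The pop7 window had 22 and 4 reads, and it also overlaps the protein-coding gene SPBP8B7.32. Noncoding genes overlap windows of snu3, sme2, smd1, lsm3, prp3 and pop5, so those reads may not come from the named genes alone. With all windows centred, pop5 and pop7 fell below 1 (0.782 and 0.786), while sec65 and prp3 stayed above it. None of the 4 genes for snRNA maturation had a window. With 82.9% of all windows higher in ABP1d, the direction of these windows sets no protein list apart. The share of all genes with a window was not computed, so the numbers of genes with a window have no background here.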

How the data were processed

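Small RNA libraries of 2 strains were used, 2 labelled ABP1d and 2 labelled WT. Per the labels' protocols, adapters were ligated to total RNA and amplified products were selected by size. Per the submitters' processing notes, Bowtie 0.12.5 was used. How windows were called, the genome build, the treatment of reads with several matches and the kind of test were not given in the sources used here. As deposited, the authors' RPKM values are 1 per strain and window, and the authors' p-values compare the strains. Columns were tied to strains by regions shared with the list of each strain: 7 of 7 equal the ABP1d list in the first column and 124 of 124 the WT list in the second.

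RPKM times length stepped by whole reads in 100% of windows of each strain, to within 1e-06, and the step gave the totals. The comparison windows add up to 99.6% and 99.7% of them. The 37 windows on 5S rRNA genes hold 6013301 reads in ABP1d and 1544634 in WT. Whether reads with several matches recur in these sums, and so in the scaling, was not tested. Intervals are exact (Clopper-Pearson, scipy 1.17.1), conditional on the summed reads. Against 0 reads, a floor of 3 was used. A count test had been planned for the case of values per library; as values are pooled, none was made. File starts count from 0, printed ones from 1. Coordinates were used on ASM294v3, where 169 of 304 ABP1d regions hold 15 or more A or T bases in a row, against 2 after a shift of 1000 bases. On chromosome III, 1 window ends 9 bases past the reference, far from rrk1. RNAfold was version 2.7.2. Reads and intervals were checked on simulated data.

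The members and lists were chosen with earlier results of these data known. All members and all their windows are named, with windows within 300 bases and up to 4 genes of each related list. The names pop1, pop3 and snm1 belong to other genes in this annotation and rds3 and dib1 were not matched, so these were not used.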

Additional observations from a re-analysis of the deposited data

How the results depend on the processing

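The summed ratio of the structured RNAs, 1.59, was the same when windows with equal reads and length were counted once, when at least 50% of a window had to lie in the gene, when at least 10 reads were required and when windows with A/T runs, of which there were none, were left out. All 17 windows remained under each of these settings, so the ratio could not change and its stability here was not tested. Scaled to the sum of windows with equal ones counted once, the ratio was 1.60. Near-equal windows were still each counted in that sum, and whether they share reads was not tested. The summed ratio was 1.56 without windows under 20 bases. It moved to 1.45 with the top window of each RNA, to 1.31 with the rRNA repeat and 5S windows out of the total, to 2.65 over the 6 windows with a deposited p of 1e-6 or less, and to 2.79 without srp7. It turned to 0.667 with the 5S windows centred and 0.373 with all windows centred. Of the RNAs, srp7 turned to 0.980 without rRNA in the total, and snu4 and srp7 to 0.916 and 0.497 with 5S windows centred. With all windows centred, snu1, snu4, snu6 and srp7 turned to 0.821, 0.513, 0.667 and 0.278. The interval included 1 for srp7 at 0.980, snu4 at 0.916, snu1 at 0.821 and snu6 at 0.667. The 16 higher windows of 17, against 82.9% of all windows, became 6 of 7 top windows, 5 of 6 with the strict p and 10 of 11 without windows under 20 bases. The share of all windows under these filters was not computed, and the strict p selects on the difference itself. With all windows centred 9 of 17 were higher, or 8 with 0 reads set to 3, against 49.5% of all windows so set. Leaving out srp7 and the windows under 20 bases were chosen after seeing the data. The cause of these changes was not tested beyond what each setting removes. No paired analysis was possible because the files hold 1 pooled value per strain; for the same reason no library could be left out. With 11 of the 17 windows under 10 reads in WT, depth limits most single windows.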
